A study of Mus musculus with 8 samples.

Results

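The 10 genes described here belong to the unfolded protein response and were followed in colon tissue of mice with colitis. They were chosen by name (Hspa5, Xbp1, Ern1, Ern2, Atf4, Atf6, Ddit3, Dnajb9, Sdf2l1 and Pdia4), and they fill 11 of the 18262 rows of the expression table, since Ddit3 has 2 rows. All 11 rows were among the 14217 tested. Colitis had been induced with dextran sulfate sodium (DSS), a polymer given to rodents that damages the lining of the colon. The DSS group holds 4 libraries of wild-type mice, and the DSS + GAA group holds 4 libraries of wild-type mice with the same colitis that were also given ganoderic acid A (GAA), a triterpenoid of Ganoderma fungi, at 20 mg/kg. The treatment labels of the 4 GAA libraries count up from 20 to 23 mg/kg, whereas the protocol gives 20 mg/kg, and they were kept as 1 group. Both groups carry colitis and no healthy colon was analysed here, so the comparison places GAA-treated against untreated colitis. The age and sex of the mice are not stated in the labels used here.

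The unfolded protein response is the signalling system by which a cell adjusts the folding capacity of its endoplasmic reticulum (ER) to the load of secretory protein. Sensors in the ER membrane start it: the IRE1 kinase-nucleases (Ern1, found in most cells, and Ern2, a paralogue of mucosal epithelium that is known for its role in mucin-producing goblet cells), the membrane-bound factor ATF6, and the kinase PERK. IRE1 splices the Xbp1 messenger RNA into the form that encodes an active factor, cleaved ATF6 enters the nucleus, and PERK slows translation by phosphorylating eIF2alpha, which favours translation of ATF4 and through it expression of CHOP (Ddit3). The targets of these factors include the chaperone BiP (Hspa5), its co-chaperone ERdj4 (Dnajb9), the disulfide isomerase ERp72 (Pdia4) and the BiP partner SDF2L1. All of these steps except transcription lie outside a gene-level RNA measurement: Xbp1 splicing, sensor phosphorylation and ATF6 cleavage were not measured here.

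Ern2 and Sdf2l1 were higher and Atf6 was lower in DSS + GAA colon, and no other row passed the test. Ern2 stood at 2.09 times its DSS mean, Sdf2l1 at 1.46 times and Atf6 at 0.691 times. Hspa5, Xbp1, Pdia4, Dnajb9 and Ern1 had group means within 10% of each other. Expression is given in TPM, a share of transcripts that is scaled to transcript length and to the library's total. Genes were tested with limma on log2(TPM + 1) over all 14217 genes, with Benjamini-Hochberg adjustment and a threshold of 0.05. Among all tested genes, 5.96% were called higher and 28.2% lower, so the members' 2 higher and 1 lower of 11 rows are read against those shares. The groups did not overlap in 2 member rows that were higher and 2 that were lower (Atf6 and Atf4), against 5.31% and 27.6% of all tested genes.

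**Figure D1:**
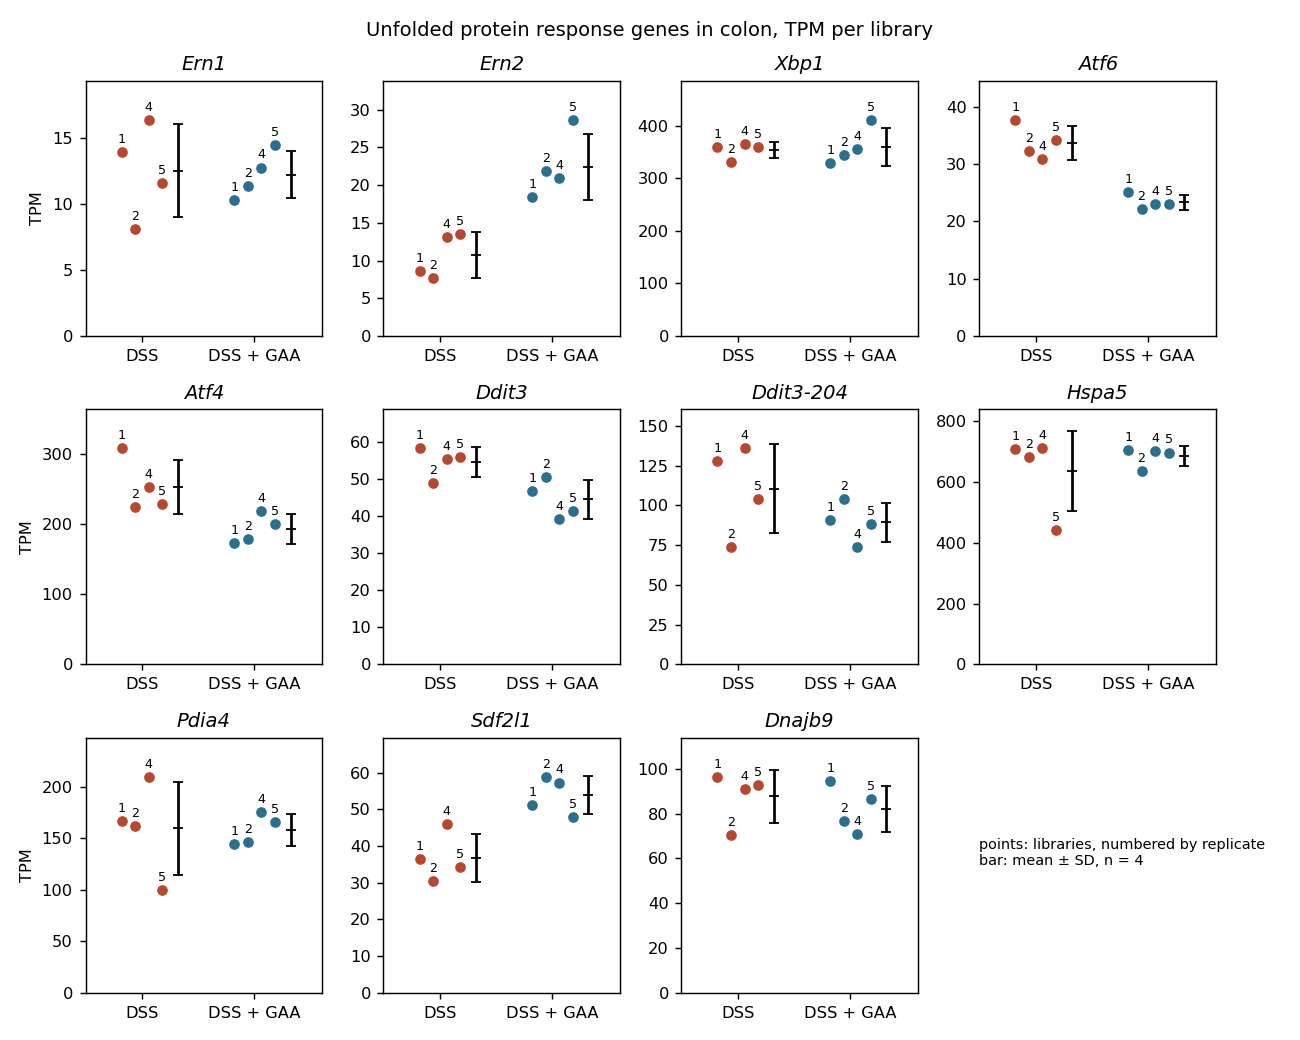
TPM (vertical axis, from 0) of each member row in the 4 DSS libraries (red) and the 4 DSS + GAA libraries (blue), numbered by replicate, with mean ± SD. The groups are apart for Ern2, Sdf2l1, Atf6 and Atf4, and Hspa5 of DSS replicate 5 lies at 440.5 TPM, below the other 7 libraries.

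Library composition differed between the groups as a whole. Each library's TPM adds up to 1000000, sequencing depth is unknown, and the fold changes of all tested genes had a median of -0.25 (log2). Trimmed mean scaling factors were 1.02 to 1.16 in DSS and 0.903 to 0.936 in DSS + GAA libraries. The share of calls that were lower was 82.5% with the deposited scaling. It was 53.8% with trimmed mean factors, 48.8% with quantile normalization and 37.7% with median centring. A member with a fold change near 0 therefore lay above the middle of all genes. In bulk tissue, fewer cells of a type and less RNA per cell cannot be told apart.

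The IRE1 sensors were followed first. Ern2 (chromosome 7, 122169893 to 122186207, minus strand, GRCm38) measured 8.62, 7.72, 13.1 and 13.5 TPM in DSS replicates 1, 2, 4 and 5. In the DSS + GAA libraries of the same numbers it measured 18.4, 21.8, 21.0 and 28.6 TPM. Every DSS + GAA library exceeded every DSS library, and the DSS libraries themselves split into a lower pair (1 and 2) and a higher pair (4 and 5). The means were 10.7 ± 2.99 and 22.5 ± 4.38 TPM (SD, n = 4 per group), the log2 fold change was 1.02 ± 0.21 (standard error; 95% interval 0.55 to 1.49; limma adjusted p = 0.00906), and a two-sided exact permutation test gave p = 0.0286, the smallest possible with 70 assignments. Under the alternatives tried, Ern2 stayed past the threshold, with limma adjusted p-values of 0.00337 to 0.0369.

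Ern1, the widely expressed IRE1 (chromosome 11, 106394650 to 106487852, minus strand), showed no such step. It measured 13.995, 8.11, 16.4 and 11.6 TPM in DSS and 10.3, 11.4, 12.8 and 14.5 TPM in DSS + GAA. The groups covered the same range, and the DSS libraries spread more widely. The log2 fold change was 0.00 ± 0.21 (95% interval -0.47 to 0.47, limma adjusted p = 0.998), so the data leave room for a change of that size in either direction.

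The balance between the IRE1 genes was read within each library, where the scaling between libraries cancels. The ratio of Ern2 to Ern1 TPM was 0.616, 0.952, 0.801 and 1.16 in DSS and 1.78, 1.92, 1.64 and 1.98 in DSS + GAA. Ern1 thus led in 3 of 4 DSS libraries and Ern2 in all 4 DSS + GAA libraries. The mean ratio was 0.882 ± 0.230 and 1.83 ± 0.151, respectively (SD, n = 4 per group). A two-sided exact permutation test gave p = 0.0286, and 0.0667 after Benjamini-Hochberg adjustment over the 7 ratios compared, which were chosen after the members' values were seen. With 7 ratios and 70 assignments, 3 ratios reached the smallest p (Ern2 over Ern1, Atf4 over Xbp1 and Atf6 over Xbp1), and none passed 0.05 after adjustment. With only 3 of 7 ratios at that smallest p, no adjusted p could fall under 0.05, so the miss says little. Their numerators, Ern2, Atf4 and Atf6, already had groups that did not overlap as single genes.

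Atf6, the membrane-bound factor (chromosome 1, 170704674 to 170867771, minus strand), measured 37.7, 32.2, 30.9 and 34.1 TPM in DSS. In DSS + GAA it measured 25.1, 22.1, 23.0 and 23.0 TPM. All 4 DSS libraries lay above all 4 DSS + GAA libraries, and the DSS + GAA values were close together. The means were 33.7 ± 2.95 and 23.3 ± 1.29 TPM (SD, n = 4 per group; log2 fold change -0.51 ± 0.11, 95% interval -0.76 to -0.27, limma adjusted p = 0.00975, two-sided exact permutation p = 0.0286). The call depended on the scaling. Under trimmed mean scaling the log2 fold change was -0.28 (limma adjusted p = 0.0601), under quantile normalization -0.28 (0.0742) and under median centring -0.21 (0.142). In the ratio of Atf6 to Xbp1 within a library, that scaling cancels. The ratio averaged 0.0953 ± 0.00831 in DSS and 0.0653 ± 0.00845 in DSS + GAA (SD, n = 4 per group). A two-sided exact permutation test gave p = 0.0286, adjusted 0.0667. Xbp1 was picked as denominator after the values were seen. Its log2 fold change of 0.02 lay above the median of all tested genes, -0.25. The ratio therefore restates the difference between Atf6 and Xbp1 and is no separate support for the call.

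**Figure D2:**
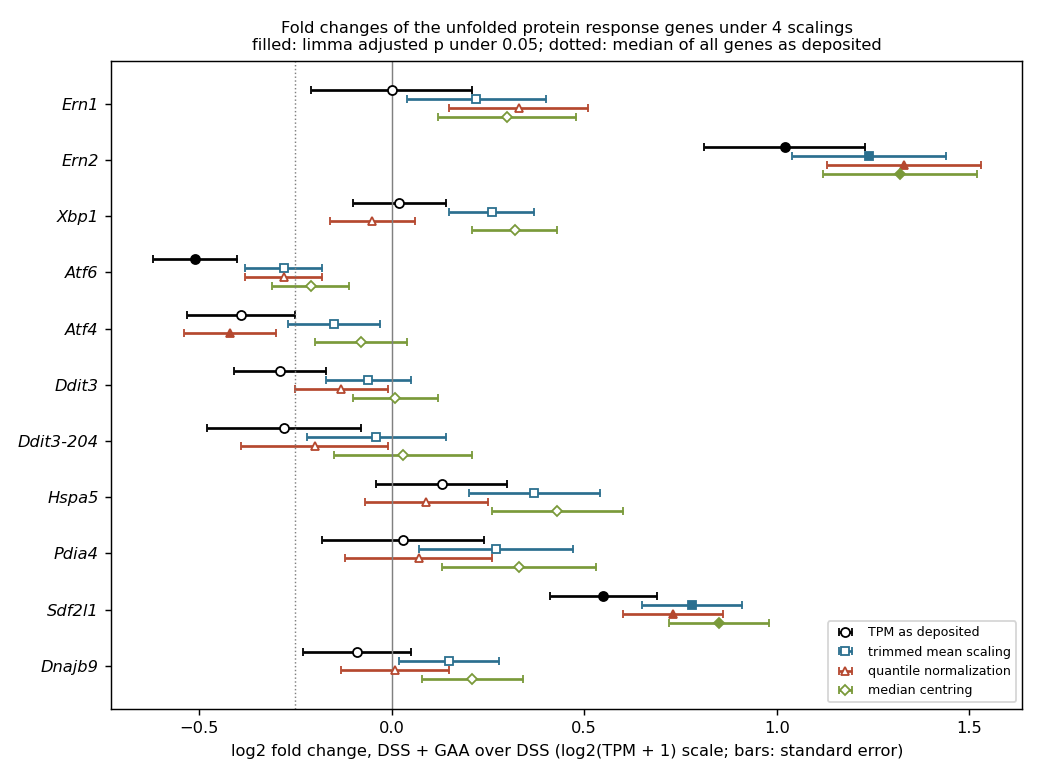
Log2 fold change of each member row (horizontal axis, DSS + GAA over DSS on the log2(TPM + 1) scale, bars are standard errors) under 4 scalings; filled symbols passed limma's adjusted p of 0.05 and the dotted line is the median of all genes, -0.25. Ern2 and Sdf2l1 are filled under all 4 scalings, Atf6 only on TPM as deposited and Atf4 only under quantile normalization.

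Among the transcription factors, Xbp1 was the most abundant and kept its level on TPM as deposited. Xbp1 (chromosome 11, 5520659 to 5525893, plus strand) measured 360.3, 332, 366 and 359 TPM in DSS and 329, 345, 356 and 411 TPM in DSS + GAA. Its group means were 354 ± 15.2 and 360.2 ± 35.8 TPM (SD, n = 4 per group; log2 fold change 0.02 ± 0.12, 95% interval -0.24 to 0.28, limma adjusted p = 0.908). These values add spliced and unspliced Xbp1.

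Atf4, the translationally controlled factor of the PERK branch (chromosome 15, 80255184 to 80257541, plus strand), measured 309, 225, 253 and 229 TPM in DSS. In DSS + GAA it measured 173, 180, 220 and 201 TPM. The groups did not overlap, with 219.8 TPM as the highest DSS + GAA value and 225.4 TPM as the lowest DSS value. The log2 fold change of -0.39 ± 0.14 (95% interval -0.70 to -0.07) missed the threshold (limma adjusted p = 0.0600; two-sided exact permutation p = 0.0286). It passed under quantile normalization (limma adjusted p = 0.0409), after removal of mitochondrial and haemoglobin genes (0.0421) and with array quality weights (0.0216). Under trimmed mean scaling the log2 fold change was -0.15 (0.374) and under median centring -0.08 (0.627).

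Ddit3, which encodes the factor CHOP, is split over 2 overlapping gene models on chromosome 10, plus strand. The full model (127290774 to 127296288) has 1713 exon bases, and a short model of 1 transcript, Ddit3-204 (127290829 to 127293753), has 105 exon bases, of which all 105 lie in exons of the full model. Reads in those bases cannot be assigned to either model with certainty, and both rows are uncertain for that reason. The full model measured 58.2, 49.0, 55.3 and 55.9 TPM in DSS and 46.8, 50.6, 39.2 and 41.4 TPM in DSS + GAA. The groups overlapped through DSS replicate 2 and DSS + GAA replicate 2. The full model had a log2 fold change of -0.29 ± 0.12 (limma adjusted p = 0.0814, two-sided exact permutation p = 0.0571), that of the short model was -0.28 ± 0.20 (limma adjusted p = 0.308), and that of the rows joined by exon length was -0.29 (limma adjusted p = 0.0907).

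The chaperone Hspa5 (BiP) was the most abundant member in both groups. Hspa5 (chromosome 2, 34771970 to 34777547, plus strand) measured 708, 682, 709 and 440.5 TPM in DSS and 704, 634, 701 and 696 TPM in DSS + GAA. Without DSS replicate 5 the remaining 7 libraries lay between 634 and 709 TPM. The log2 fold change was 0.13 ± 0.17 (95% interval -0.25 to 0.52, limma adjusted p = 0.576), and it was -0.03 without DSS replicate 5. Pdia4 (ERp72; chromosome 6, 47796141 to 47813430, minus strand) had the same low library: it measured 167, 162, 209.8 and 100.1 TPM in DSS and 144, 146, 176 and 166 TPM in DSS + GAA. Its log2 fold change was 0.03 ± 0.21 (95% interval -0.44 to 0.50, limma adjusted p = 0.922), and -0.18 without DSS replicate 5.

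Sdf2l1, an ER-resident partner of the BiP chaperone cycle (chromosome 16, 17130138 to 17132383, minus strand), measured 36.4, 30.4, 46.0 and 34.3 TPM in DSS. In DSS + GAA it measured 51.2, 58.8, 57.3 and 47.9 TPM. Every DSS + GAA library exceeded every DSS library, by the smallest margin between DSS replicate 4 and DSS + GAA replicate 5. The means were 36.8 ± 6.64 and 53.8 ± 5.15 TPM (SD, n = 4 per group; log2 fold change 0.55 ± 0.14, 95% interval 0.23 to 0.87, limma adjusted p = 0.0191, two-sided exact permutation p = 0.0286). The call held under all 3 other scalings (log2 fold changes 0.73 to 0.85) and was lost without DSS replicate 1 (limma adjusted p = 0.0574) or DSS + GAA replicate 2 (0.0612). Whether Sdf2l1 and Hspa5 moved unequally was tested on their ratio within a library, which averaged 0.0597 ± 0.0148 and 0.0790 ± 0.0107 in the same order (SD, n = 4 per group). The log2 difference of the ratio was 0.43 and did not pass 0.05 (two-sided exact permutation p = 0.114, adjusted 0.160). With 4 libraries per group, an unequal move was neither shown nor excluded.

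Dnajb9, the BiP co-chaperone ERdj4 (chromosome 12, 44205559 to 44210326, minus strand), measured 96.4, 70.4, 90.9 and 92.9 TPM in DSS and 94.5, 76.9, 71.1 and 86.4 TPM in DSS + GAA. The groups covered the same range (log2 fold change -0.09 ± 0.14, 95% interval -0.41 to 0.23, limma adjusted p = 0.647). Unlike Hspa5 and Pdia4, Dnajb9 was not low in DSS replicate 5.

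The promoters of Hspa5 and Sdf2l1 are shown because Hspa5 carries the classical ER stress element and Sdf2l1 is the folding gene among the members that was called. RefSeq promoter sequence (GRCm38.p6) matched 8 of the 10 symbols, all but Ern2 and Atf6. The 250 bases before the RefSeq start are printed 5′ to 3′ on the gene's strand, at chr2:34771840-34772089 (plus) and chr16:17132384-17132633 (minus). Capitals in Hspa5 mark the fixed letters of the ER stress response element and the core TGACGTG (its further CCAAT boxes stay in lower case), and capitals in Sdf2l1 mark CCAAT and CCACG on either strand, read as ATTGG and CGTGG where they lie on the other strand.
Hspa5: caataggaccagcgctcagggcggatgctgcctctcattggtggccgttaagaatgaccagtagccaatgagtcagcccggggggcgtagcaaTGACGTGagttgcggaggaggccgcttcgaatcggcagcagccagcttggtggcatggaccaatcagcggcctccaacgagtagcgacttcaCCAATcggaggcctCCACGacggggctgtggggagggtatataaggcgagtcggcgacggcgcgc
Sdf2l1: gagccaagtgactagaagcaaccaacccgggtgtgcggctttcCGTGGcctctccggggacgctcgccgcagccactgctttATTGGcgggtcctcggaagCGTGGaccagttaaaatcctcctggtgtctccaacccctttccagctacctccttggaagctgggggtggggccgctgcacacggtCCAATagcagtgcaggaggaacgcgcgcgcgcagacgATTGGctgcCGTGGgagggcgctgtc

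Motifs were searched on both strands of those 250 bases in 32851 promoter windows. The ER stress response element, searched as CCAAT, then 9 bases of any kind, then CCACG, was found in Hspa5, 65 to 47 bases before the start, and in 0.113% of all windows. TGACGTG, the core bound by ATF6 and XBP1, was found in Hspa5, 157 to 151 bases before the start, and in 1.65% of all windows. The other 7 members with a window held neither motif. CCAAT alone, which overlaps the longer element, was found in 6 of 8 members and 33.8% of windows, and CCACG alone in 5 of 8 members and 28.3% of windows. The second ER stress element, searched as ATTGG, any base and CCACG (0.0304% of windows), and the composite site TGATGNAAT of ATF4 partners (0.816%) were found in 0 of 8 members. Sdf2l1 held CCAAT and CCACG letters in other spacings, and Hspa5 held the full element. A match is a description of letters in these windows. Variant letters and sites beyond the 250 bases were not searched, and the called members Ern2 and Atf6 had no window. Whether a motif goes with a call was not tested.

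DSS replicate 5 stood apart in folding genes. It was the lowest of the 8 libraries for 10 of 19 listed ER chaperones and 6 of 17 tested disulfide isomerases and oxidases, and for Hspa5 and Pdia4 among the members. Over all tested genes it was the lowest for 5.25%. The library was singled out after its values were seen. Among the 11 member rows the library most often lowest was DSS replicate 2, in 5 rows (Ern1, Ern2, Ddit3-204, Dnajb9 and Sdf2l1; 45.5%, against 16.9% of all tested genes). Without it, the log2 fold changes of the members called higher were 0.89 for Ern2 (limma adjusted p = 0.0240) and 0.46 for Sdf2l1 (0.0444). Hsp90b1, the ER form of HSP90, measured 517 TPM in DSS replicate 5. It measured 866 to 1097 TPM in the other 3 DSS libraries and 831 to 939 TPM with GAA. The summed level of the 19 chaperones was 2661 TPM in DSS replicate 5. The sum lay between 3402 and 4188 TPM in the other DSS libraries and between 3890 and 4129 TPM with GAA. Xbp1, Ern2, Dnajb9 and Ddit3 of DSS replicate 5 lay within the range of the other DSS libraries or at its upper end.

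**Figure D3:**
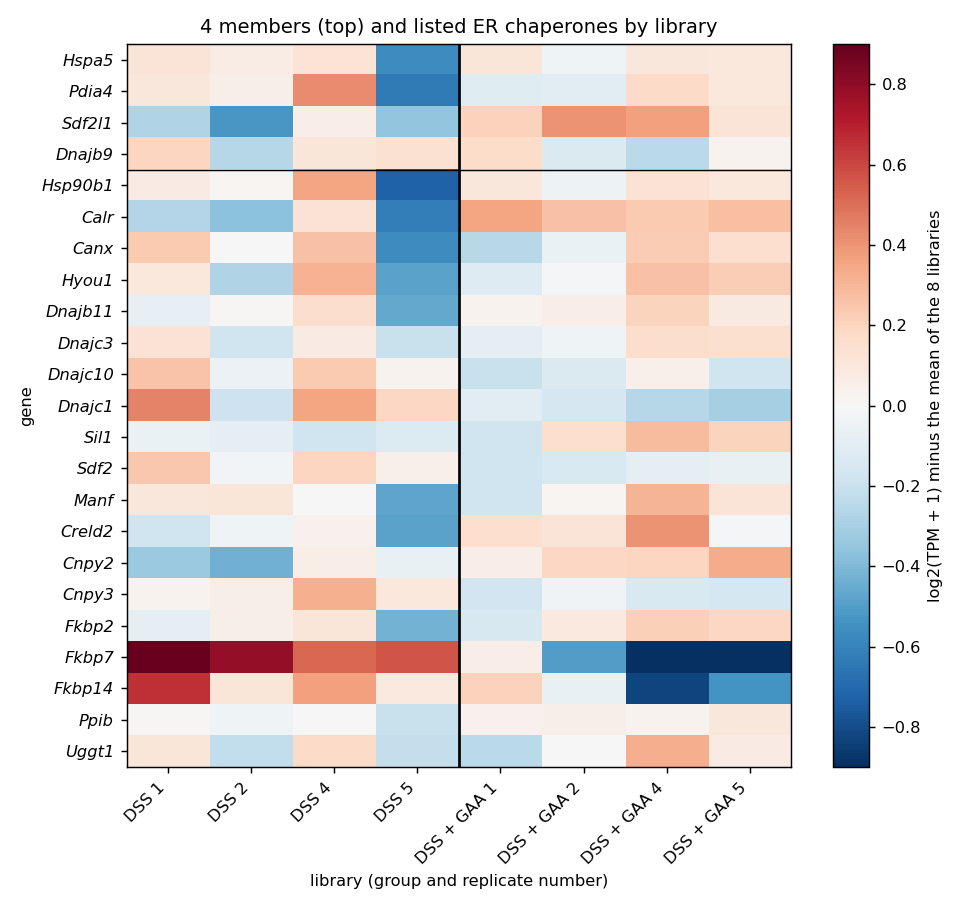
Colour gives log2(TPM + 1) minus the mean of the 8 libraries for Hspa5, Pdia4, Sdf2l1 and Dnajb9 (above the line) and the 19 listed ER chaperones; columns are libraries, DSS left of the vertical line. DSS replicate 5 is blue for Hspa5, Pdia4 and 10 chaperones in which it is the lowest library, and Fkbp7 is dark red in DSS and blue in 3 of 4 DSS + GAA libraries.

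The order of the members' levels was nearly the same in both groups. By mean TPM, which is per transcript length, it ran Hspa5, Xbp1, Atf4, Pdia4, Ddit3-204, Dnajb9, Ddit3, Sdf2l1, Atf6, Ern1 and Ern2 in DSS. In DSS + GAA, Sdf2l1 stood before Ddit3 and Ern2 before Ern1. Neighbours whose library ranges overlapped in DSS were Pdia4 with Ddit3-204, Ddit3-204 with Dnajb9, Sdf2l1 with Atf6, and Ern1 with Ern2. In DSS + GAA they were Atf4 with Pdia4, Ddit3-204 with Dnajb9, Sdf2l1 with Ddit3, and Atf6 with Ern2. Hspa5 and Xbp1 were apart from the next gene in both groups.

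The other genes of the pathway were read from 10 lists. Their counts under another scaling are read against all 14217 tested genes under that scaling. With trimmed mean factors, quantile normalization and median centring, 1644, 1677 and 2165 genes rose, against 847 as deposited. In the same order 1915, 1601 and 1308 fell, against 4006 as deposited. Of 19 ER chaperones and co-chaperones, 1 rose and 1 fell (5.26% each, against 5.96% higher and 28.2% lower over all tested genes). The list median was 0.11, against -0.25 over all tested genes. Calr, the lectin chaperone calreticulin, rose from 959 ± 215 to 1394 ± 51.2 TPM (limma adjusted p = 0.0298). Fkbp7, a prolyl isomerase of the ER, fell from 51.9 ± 6.85 to 20.4 ± 9.18 TPM (limma adjusted p = 0.00757). Hsp90b1 (log2 fold change 0.14, limma adjusted p = 0.637), Manf, a secreted ER stress factor (0.13, 0.564), and Cnpy2 (0.39, 0.0509) did not pass. The rise was lost with the replicate number as a block and when any library was left out except DSS replicate 4 (2 risers) and DSS + GAA replicate 1 (3), while 6 rose with trimmed mean factors, 3 with quantile normalization and 8 with median centring. The genes that fell numbered 2 when DSS replicate 2 or DSS + GAA replicate 1 was left out and 5 with array quality weights.

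Of 17 tested disulfide isomerases and oxidases, 6 fell (35.3%, against 28.2% of all tested genes) and 1 rose. Prdx4, the ER peroxiredoxin, fell from 42.5 ± 5.26 to 25.3 ± 1.87 TPM (limma adjusted p = 0.00598), and Ero1a, the oxidase that recharges disulfide isomerases, from 99.3 ± 22.8 to 63.3 ± 4.05 TPM (0.0199). Tmx4, a membrane thioredoxin, fell from 17.3 ± 3.31 to 7.14 ± 2.15 TPM (limma adjusted p = 0.00621). Pdia5, named after its value was seen, was the 1 that rose (log2 fold change 0.90, limma adjusted p = 0.0494). The falls numbered 2 or 3 under the other scalings, with the replicate block, and when DSS replicate 1 or 4 or any of DSS + GAA replicates 2, 4 and 5 was left out. The rise was lost with the replicate block, with pseudocount 0.1, under both other filters, without a variance trend, without mitochondrial and haemoglobin genes, and when any library was left out except DSS + GAA replicate 1, and 2 to 4 genes rose under the other scalings.

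Of 20 genes of ER-associated degradation, by which misfolded proteins are returned to the cytosol, 2 rose and 2 fell (list median -0.15). Each is 10% of the list, against 5.96% higher and 28.2% lower over all tested genes. The mannosidase-like genes Edem1 and Edem2 rose, Edem2 from 34.4 ± 3.74 to 48.2 ± 2.94 TPM (limma adjusted p = 0.0145) and Edem1, named after its value was seen, by 0.37 on the log2 scale (0.0460). Ufd1 and Nploc4, the cofactors of the p97 segregase, fell from 59.997 ± 6.33 to 41.1 ± 4.62 TPM (limma adjusted p = 0.0137) and from 39.9 ± 3.74 to 31.2 ± 1.59 TPM (0.0366). Neither fall passed under any of the 3 further scalings or with DSS replicate 1 left out, and 1 passed with the replicate block or when DSS replicate 4 or any of DSS + GAA replicates 2, 4 and 5 was left out. The rises numbered 1 with the replicate block or when any library except DSS + GAA replicate 5 was left out, and 3 to 5 under the further scalings.

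The next lists cover entry into and exit from the ER. Of 24 translocation and glycosylation genes, 0 rose and 1 fell in limma (list median -0.06), and of 18 genes of ER-Golgi traffic 0 rose and 1 fell (-0.05). The falls are 4.17% and 5.56% of the lists, against 28.2% of all tested genes. The genes that fell were Ssr3, a subunit of the translocon-associated complex (289 ± 34.6 to 218 ± 20.3 TPM, limma adjusted p = 0.0410), and the COPII coat gene Sec24b (31.3 ± 2.22 to 24.6 ± 1.21 TPM, 0.0358). Both falls were lost with trimmed mean factors, median centring or the replicate block, and when DSS replicate 1 or 4 or any of DSS + GAA replicates 2, 4 and 5 was left out. That of Ssr3's list was also lost when DSS replicate 2 or DSS + GAA replicate 1 was left out, and that of Sec24b's list was lost with quantile normalization and became 2 when DSS replicate 5 was left out. Median centring gave 6 risers in the translocation list and 3 in the traffic list.

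In the PERK and ATF4 branch, Eif2ak3, which encodes PERK, measured 26.03 ± 2.75 and 21.9 ± 1.53 TPM (SD, n = 4 per group; log2 fold change -0.23 ± 0.12, limma adjusted p = 0.143). Of 31 tested ATF4 targets and genes of the integrated stress response, 10 fell (32.3%, near the 28.2% of all tested genes) and 1 rose. The list median was -0.50, against -0.25 over all tested genes. Slc7a11, the cystine transporter, fell from 8.35 ± 3.77 to 1.43 ± 0.346 TPM (limma adjusted p = 0.00531), Eif4ebp1, a translation repressor, from 32.9 ± 5.96 to 13.1 ± 3.69 TPM (0.00541) and Asns, asparagine synthetase, from 71.6 ± 13.8 to 37.2 ± 2.16 TPM (0.00554). Wars1, the tryptophanyl-tRNA synthetase gene, which interferon also induces, was the 1 that rose (log2 fold change 1.33, limma adjusted p = 0.0219; named after its value was seen). The falls numbered 7 to 13 with 1 library left out. With trimmed mean factors, quantile normalization and median centring they numbered 7, 8 and 7 of 31. Over all 14217 tested genes the falls numbered 1915, 1601 and 1308 in the same order, against 4006 as deposited. The rise was lost when any of DSS replicates 1, 2 and 4 or DSS + GAA replicate 2 was left out, and 2 or 3 rose under the other scalings.

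Of 12 eIF2alpha kinases, phosphatases and exchange factor subunits, 4 fell (33.3%, near the 28.2% of all tested genes) and 0 rose in limma (list median -0.38). Eif2ak4, the amino acid sensor GCN2, fell from 8.43 ± 1.31 to 4.89 ± 0.356 TPM (limma adjusted p = 0.0115). Ppp1r15a, the stress-induced phosphatase subunit GADD34, fell from 58.4 ± 16.6 to 27.3 ± 12.6 TPM (0.0252) and also stands in the ATF4 and CHOP lists. No fall passed under the 3 other scalings, where 1 gene rose with trimmed mean factors and 3 with median centring, and 2 falls passed with the replicate block or when any of DSS replicates 1 and 4 and DSS + GAA replicates 2 and 5 was left out. Of 8 genes tied to CHOP in ER stress death, 2 fell (Bcl2 and Ppp1r15a; 25%, against 28.2% of all tested genes) and 0 rose in limma. Bcl2, which opposes apoptosis, fell from 8.05 ± 1.26 to 4.66 ± 1.179 TPM (limma adjusted p = 0.0231). Each of the 3 other scalings left 0 falls there (quantile normalization also gave 1 rise), as did leaving out DSS replicate 1 or DSS + GAA replicate 5. Leaving out DSS replicate 2 or either of DSS + GAA replicates 2 and 4 left 1, and leaving out DSS + GAA replicate 1 gave 4.

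Around ATF6 and IRE1, relatives and partners moved in both directions. Of 8 ER membrane bZIP factors and site proteases, 1 rose and 1 fell (12.5% each, against 5.96% and 28.2% of all tested genes). Creb3l4 rose (10.0 ± 3.89 to 18.8 ± 3.72 TPM, limma adjusted p = 0.0282) and Mbtps2, the protease that makes the second cut in ATF6, fell (13.2 ± 1.5 to 8.82 ± 2.00 TPM, 0.0351). Atf6b, the close relative of Atf6, stayed at 17.8 ± 2.53 and 18.1 ± 1.64 TPM (log2 fold change 0.03, 95% interval -0.28 to 0.33). The list had no fall under any other scaling, with the replicate block, or when any DSS library or DSS + GAA replicate 2 or 4 was left out. It had no rise when DSS replicate 1 or 4 or any of DSS + GAA replicates 2, 4 and 5 was left out, and 2 when DSS + GAA replicate 1 was. Of 10 IRE1 partners, 3 rose and 2 fell (30% and 20%, against 5.96% and 28.2% of all tested genes). Tmbim6, the ER membrane protein BI-1 that restrains IRE1, rose from 345 ± 40.8 to 501 ± 35.6 TPM (limma adjusted p = 0.0140) and Bak1 from 92.9 ± 10.8 to 139 ± 16.9 TPM (0.0127). Bfar (0.63, limma adjusted p = 0.0165) also rose and Bax (-0.45, 0.0178) fell, both named after their values were seen. Mapk8, the kinase JNK1, fell from 27.3 ± 2.86 to 16.9 ± 2.01 TPM (limma adjusted p = 0.00777). With DSS replicate 1 left out, 1 rose and 1 fell. The falls numbered 1 with trimmed mean factors and 0 with quantile normalization or median centring.

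**Figure D4:**
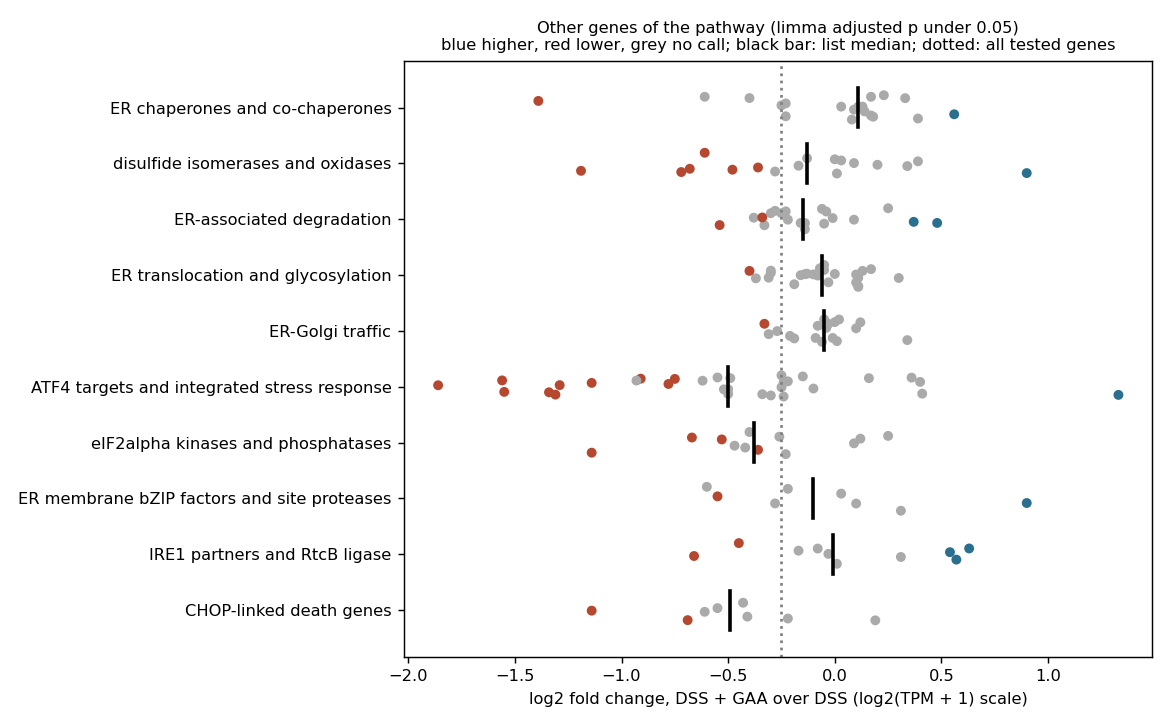
Each point is a tested gene of a pathway list, placed by its log2 fold change (horizontal axis, DSS + GAA over DSS on the log2(TPM + 1) scale) and coloured by limma's call; black bars are list medians and the dotted line is the median of all tested genes, -0.25. The median of the chaperone list lies at 0.11 and that of the ATF4 list at -0.50.

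Cell type markers shifted with the groups, beside all of these results. Among all tested genes 5.96% rose and 28.2% fell, against 50% and 0% of goblet cell markers. For pan-epithelial markers the shares were 40% and 0%. Of 16 goblet cell markers, 8 rose and 0 fell in limma, and their summed level lay between 7708 and 19813 TPM in DSS libraries and between 14597 and 27340 TPM with GAA. Agr2, a disulfide isomerase relative of goblet cells, rose from 1464 ± 406 to 3173 ± 435 TPM (limma adjusted p = 0.00743), while Muc2, the main secreted mucin, did not pass (461 ± 162 and 693 ± 177 TPM, 0.110). Of 10 pan-epithelial markers, 4 rose and 0 fell in limma, and the summed levels did not overlap (9670 to 12014 TPM and 12996 to 15373 TPM). Among the members, Ern2 is known from the same secretory epithelium. In DSS replicates 1, 2, 4 and 5 the goblet sums were 7708, 11002, 15448 and 19813 TPM, and the pair with the lower sums was also the pair with the lower Ern2. With GAA they were 27340, 22622, 14597 and 16591 TPM, and replicate 1, with the highest goblet sum, had the lowest Ern2 of its group. The pan-epithelial sums with GAA were 12996, 15038, 15278 and 15373 TPM, lowest in replicate 1 and highest in replicate 5, as Ern2 was. In DSS they were 9670, 10993, 12014 and 10322 TPM, lowest in replicate 1 and highest in replicate 4. Ern2 in DSS was lowest in replicate 2 and highest in replicate 5. No marker of these lists was at 0 in all libraries, and the part of a changed cell mix in the members' results was not tested.

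**Figure D5:**
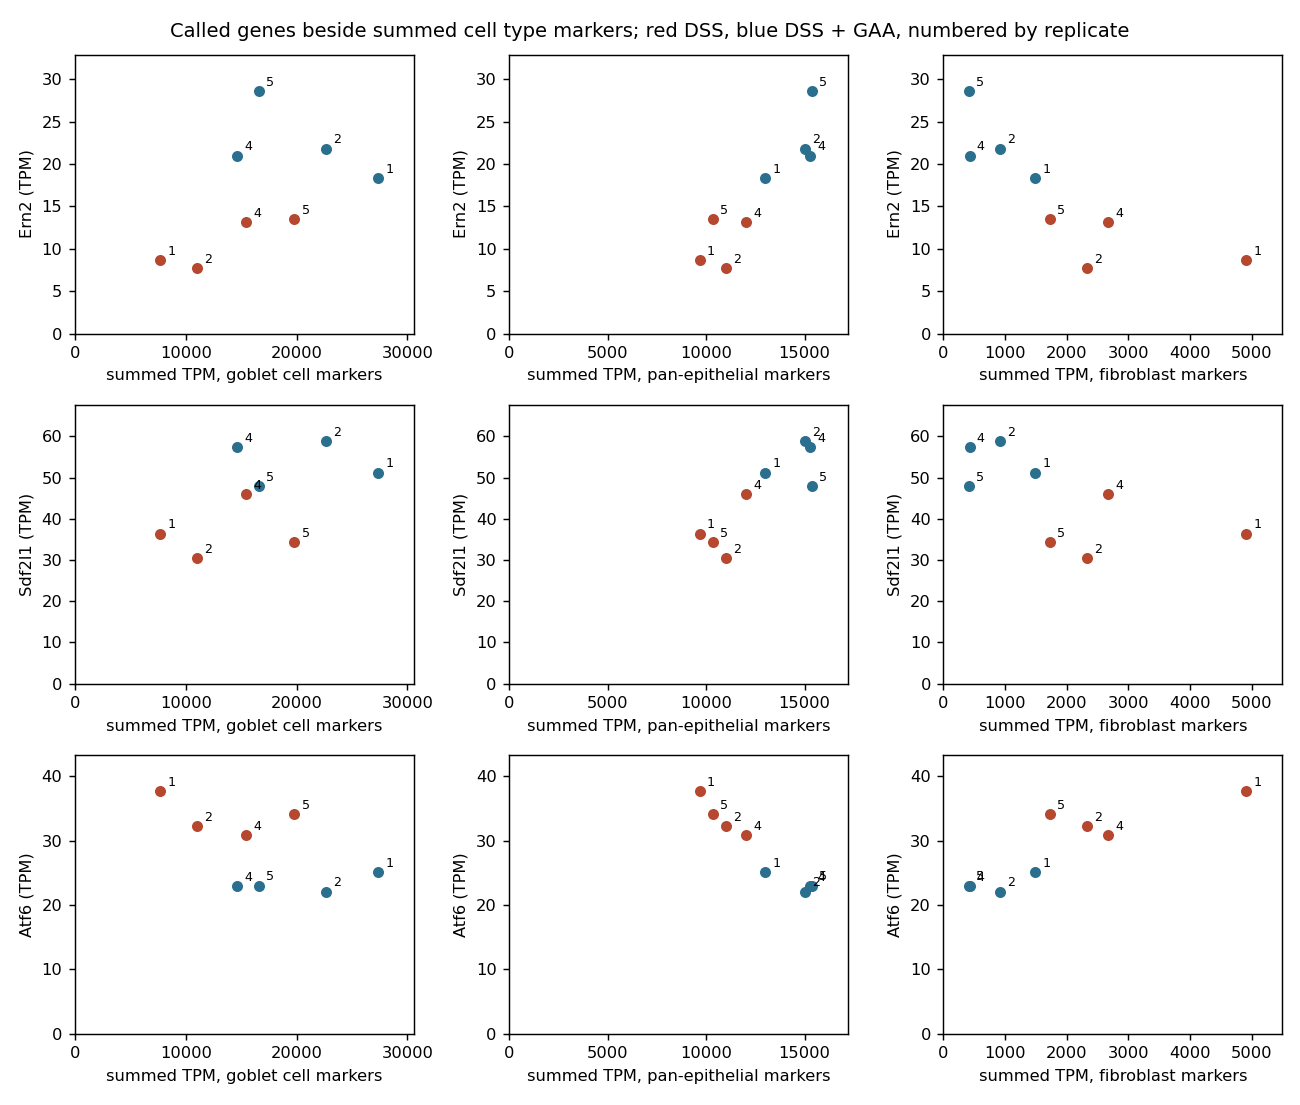
TPM of Ern2, Sdf2l1 and Atf6 (vertical axes) against the summed TPM of goblet cell, pan-epithelial and fibroblast markers (horizontal axes) in the 8 libraries, DSS in red and DSS + GAA in blue, numbered by replicate. The pan-epithelial and fibroblast sums separate the groups, as the 3 genes do, and the goblet sums overlap.

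Plasma cells, which rely on Xbp1 for antibody secretion, gave fewer calls. Of 13 tested plasma cell markers, 0 rose and 1 fell (Sdc1, 148 ± 23.3 to 74.2 ± 10.4 TPM, limma adjusted p = 0.00531), and their sum lay between 1367 and 2176 TPM in DSS libraries and between 984 and 3377 TPM with GAA. Jchain, the joining chain of secreted antibodies, measured 1469 ± 392 and 1840 ± 1028 TPM (limma adjusted p = 0.729). Of 10 enteroendocrine markers, 1 rose and 5 fell, among them Scg2 and Chga, and of 12 colonocyte markers 6 rose and 1 fell. Of 12 neutrophil markers, 11 fell, with sums between 2475 and 6727 TPM in DSS libraries and between 164 and 457 TPM with GAA. Fibroblast markers, of which 4 of 8 fell, had sums between 1729 and 4910 TPM in DSS libraries and between 413 and 1489 TPM with GAA. Of 8 markers each, 7 fell for enteric neurons and glia, 5 for endothelium, 2 for macrophages and 0 for smooth muscle. Of 7 T cell markers 6 rose. Over all tested genes 5.96% rose and 28.2% fell. The falls made up 7.69% of plasma cell, 25% of macrophage, and 50% of enteroendocrine and fibroblast markers. For endothelium they made up 62.5%, for enteric neurons and glia 87.5% and for neutrophils 91.7%. The rises made up 10% of enteroendocrine, 50% of colonocyte and 85.7% of T cell markers.

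The authors' deposited table gives its own test for the same rows. In the authors' deposited table, Ern2 had a log2 fold change of 1.06 and a false discovery rate of 9.48e-05, and Sdf2l1 0.55 and 0.0216. Atf6 had -0.53 and 0.628 in the authors' deposited table, so the gene whose call here depended on scaling was not called there. The other 8 rows of the authors' deposited table had false discovery rates from 0.353 to 1.00, Atf4 at 0.867. These rates did not follow the distance of the deposited fold change from 0. Xbp1 at 0.02 had 0.499, a lower rate than Atf4 at -0.39. The deposited rates may therefore not measure change from 0, which limits the comparison of calls.

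Genes whose variation between libraries was most like a member's were sought on deviations from the group means over 8 libraries, among 11198 genes of at least 5 TPM on average. For Hspa5, they were Cd81, Gon7, Rbm12, Ywhaz and Xpo1, with Pearson's r from 0.965 to 0.987. For Ern2, they were Gal3st2c, Nxf1, Plbd1, Nat9 and Kcnf1, with r from 0.977 to 0.995. Among the members, the pair of Hspa5 and Pdia4 had an r of 0.91, and both were lowest in DSS replicate 5. The values are descriptions over 8 libraries that share their scaling. The highest of 11198 r values over so few libraries can be high by chance, and a single low library can raise them. Shared regulation was not tested.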

How the data were processed

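Messenger RNA of colon tissue was taken with oligo(dT) beads and read as pairs on an MGI-T7, per the labels' protocols. The authors deposited 1 table with a TPM value per gene and library, their log2 fold change, and their p-value and false discovery rate (no source used here names the test behind these). Per the submitters' processing notes, the build was mm10 and the tools were HISAT2, Bowtie2, Trimmomatic, SAMtools, GATK, Subread, featureCounts and edgeR, with no roles or versions. TPM keeps no record of depth, so no count test, interval or detection floor was possible. The labels do not say whether strand was kept or whether libraries came from different mice, and p-values therefore reflect only how far these samples spread, which may be technical.

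Genes with at least 1 TPM in at least 4 of 8 libraries were tested (14217 of 18262) on log2(TPM + 1) with limma (version 3.58.1, with statmod 1.5.0 under R 4.3.3), using a variance trend and robust empirical Bayes, group as the sole term, and Benjamini-Hochberg adjustment over all tested genes. The script was tested on simulated data. Single members and ratios were also compared by a two-sided exact permutation test over 70 assignments. Members and lists were chosen with earlier results of these data known. Named genes are the members, the 3 genes of smallest p in each pathway list, Eif2ak3, Atf6b, Hsp90b1, Calr and Manf, the first gene and the gene of smallest p in each marker list, and the 5 genes most like Hspa5 and Ern2; others are marked as named after their values were seen. Coordinates are from GENCODE vM21 (GRCm38). Alternatives were other pseudocounts, filters, scalings, empirical Bayes settings and weights, removal of haemoglobin and mitochondrial genes, a block on the replicate number, and fits that left out 1 library; joining the Ddit3 rows was added after seeing the data.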

Additional observations from a re-analysis of the deposited data

Results flagged for a closer look

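Hspa5 was set apart in 1 library of each group, by a gap to the nearest library that exceeded Dixon's 95% critical value for 4 samples. In DSS replicate 5 it stood at 440.5 TPM, and the gap took 0.898 of the group's range. In DSS + GAA replicate 2 it stood at 634 TPM, with a gap of 0.883 of a much narrower range. Chance sets about 1 in 20 such groups apart, and 22 were looked at.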

How the results depend on the processing

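Ern2 stayed called under all 19 alternatives. The members' higher count was 1 to 2 with 1 library left out, the lower value without DSS replicate 1 or DSS + GAA replicate 2. The lower count was 0 with trimmed mean factors and median centring, and 2 after mitochondrial and haemoglobin genes were removed and with array quality weights. Over all genes, 1644, 1677 and 2165 were higher, and 1915, 1601 and 1308 lower, with trimmed mean factors, quantile normalization and median centring. With 1 library left out, 361 to 1277 were higher and 1676 to 4435 lower. Higher genes numbered 361, 529, 1277, 417 and 545 without DSS replicates 1 and 2 and DSS + GAA replicates 1, 2 and 4, and lower genes 1676, 2669 and 2430 without DSS replicates 1 and 4 and DSS + GAA replicate 2.

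Sign changes were limited to members with no call. With trimmed mean factors, Ern1 was at 0.22 and Dnajb9 at 0.15 (log2). With quantile normalization, Ern1 was at 0.33, Xbp1 at -0.05 and Dnajb9 at 0.01. With median centring, Ern1 was at 0.30, Dnajb9 at 0.21, Ddit3 at 0.01 and Ddit3-204 at 0.03. Xbp1 was at -0.01 without mitochondrial and haemoglobin genes, Pdia4 at -0.12 with array quality weights, and Ern1 at 0.00 with a pseudocount of 0.1, from a main value that also rounds to 0.00. With 1 library left out, Hspa5 ranged from -0.03 to 0.19, Xbp1 from -0.05 to 0.06, Ern1 from -0.18 to 0.13 and Pdia4 from -0.18 to 0.18. The cause was not tested.

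With the replicate block, 2 members were higher and 1 lower, and 679 genes were higher and 3340 lower. Same-numbered libraries correlated at 0.180, -0.109, 0.146 and -0.0302 in their deviations, so the numbers were not taken as pairs. Depth is unknown in TPM, and 4 libraries a group limit the precision.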
